A study of Mus musculus with 2 samples.

Results

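The IκB family was examined in fetal liver cells that lack its best known member. Its 6 genes are Nfkbia, Nfkbib, Nfkbie, Nfkbiz, Nfkbid and Bcl3, which were taken by name from the 32285 genes of the count tables, and 5 of them remain intact when Nfkbia is deleted. The comparison asked whether those 5 genes respond to the loss of Nfkbia. IκB proteins carry ankyrin repeats that bind NF-κB dimers of the Rel family. Among these 6 members, IκBα, IκBβ and IκBε are cytoplasmic inhibitors. They hold NF-κB out of the nucleus until the IKK complex marks them for ubiquitination and destruction. IκBζ, IκBNS and BCL3 act mainly in the nucleus, where they adjust transcription by NF-κB. Several IκB genes are themselves NF-κB targets, which gives the pathway a negative feedback, and NF-κB signalling takes part in the emergence of haematopoietic stem cells in the embryo.

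Fetal liver cells of E14.5 embryos of the CD1 strain were profiled by droplet-based 3′ single-cell RNA sequencing, with 1 library of IκBα WT cells from a pool of 2 embryos and 1 library of IκBα KO cells from a pool of 3 embryos. The KO embryos come from a germline Nfkbia knockout line, so that no embryonic cell type was spared the deletion, and neither genotype received a treatment. Livers were depleted of lineage-positive cells and sorted for LSK cells (lineage-negative, SCA1+, cKIT+), although the sample titles speak of LT-HSC. After filtering, 3458 WT and 4417 KO cells remained, with medians of 28065 and 19560 UMIs (each UMI marks 1 captured RNA molecule).

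With 1 library per genotype there was no replicate and no test, and embryo, library and genotype cannot be told apart. All intervals given are 95% intervals that cover counting error only. Values are UMIs summed over the cells of a type. They are printed as CPM, the usual count-per-million scale, in which the denominator is every UMI of the same type in the same library. Because the 3′ assay gives 1 UMI per captured transcript end whatever its length, CPM of different genes were set side by side without length scaling. Cells were assigned to 8 types by the number of marker genes detected, none of them an IκB gene. Marker detection depends on depth and KO cells were shallower, so a gate need not pick like cells in both libraries. The types held 2750 WT and 3490 KO cells, from 1558 WT and 2189 KO erythroid cells to 22 WT and 44 KO hepatocytes. The markers of 7 types peaked in their own type, with at most 2 exceptions in a library. For the stem gate only 4 of 8 did (Hlf, Mecom, Pdzk1ip1 and Procr), with Fgd5 and Hoxb5 higher in endothelial cells, Mllt3 in erythroid and Slamf1 in megakaryocyte cells. Ly6a mRNA, which encodes SCA1, reached 22.4 CPM (WT) and 26.6 CPM (KO) in stem cells but 0.959 and 0.916 CPM in erythroid cells, which goes against the label LSK for the largest type. A cluster of 3 WT and 102 KO cells stood apart, 32 of its KO cells falling in the neutrophil gate and 1 in the megakaryocyte gate. Y-linked UMIs without Xist marked 17.4% of KO and 0.116% of WT cells as male. As a measure of free RNA, the 8 hepatocyte markers summed to 70.9 CPM in WT and 124 in KO stem cells, against 73568 and 77225 in hepatocytes.

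The promoter sequences of the family are shown first, because several IκB genes are known NF-κB targets and the κB consensus is the DNA sequence that NF-κB dimers bind. The sequences are from RefSeq on build GRCm38.p6, and each runs from 250 bases before to 50 bases after a start site in the direction of transcription, with matches to the κB consensus on either strand in capitals. The table used held promoters for 5 of the 6 genes, namely all but Nfkbiz.
Nfkbia (chr12:55492598-55492897, minus strand): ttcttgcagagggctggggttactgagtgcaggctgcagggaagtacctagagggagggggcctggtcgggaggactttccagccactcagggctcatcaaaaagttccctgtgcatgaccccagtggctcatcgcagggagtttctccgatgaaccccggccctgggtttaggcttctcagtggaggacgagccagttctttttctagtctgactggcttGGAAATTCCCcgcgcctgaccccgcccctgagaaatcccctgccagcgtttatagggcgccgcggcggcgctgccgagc
Nfkbie (chr17:45555450-45555749, plus strand): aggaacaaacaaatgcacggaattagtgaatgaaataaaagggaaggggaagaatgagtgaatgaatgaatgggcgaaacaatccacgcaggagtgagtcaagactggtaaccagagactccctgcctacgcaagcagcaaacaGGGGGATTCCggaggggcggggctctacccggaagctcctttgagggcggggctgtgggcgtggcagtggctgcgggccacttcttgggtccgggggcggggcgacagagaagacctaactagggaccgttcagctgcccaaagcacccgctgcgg
Nfkbid, second of 3 start sites (chr7:30422156-30422455, plus strand): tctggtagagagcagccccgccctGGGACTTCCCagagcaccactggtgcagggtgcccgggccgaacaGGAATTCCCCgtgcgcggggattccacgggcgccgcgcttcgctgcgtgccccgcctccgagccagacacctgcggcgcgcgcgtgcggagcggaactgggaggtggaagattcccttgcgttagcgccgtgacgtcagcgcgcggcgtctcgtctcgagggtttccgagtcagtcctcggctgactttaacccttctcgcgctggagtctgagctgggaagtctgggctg
Bcl3 (chr7:19822706-19823005, minus strand): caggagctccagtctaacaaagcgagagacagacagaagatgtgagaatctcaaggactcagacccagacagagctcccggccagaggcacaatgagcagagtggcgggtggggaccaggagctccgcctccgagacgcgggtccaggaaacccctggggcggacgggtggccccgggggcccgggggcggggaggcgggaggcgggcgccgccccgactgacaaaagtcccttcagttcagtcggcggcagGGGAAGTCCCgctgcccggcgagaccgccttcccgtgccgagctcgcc
Nfkbib (chr7:28766595-28766894, minus strand): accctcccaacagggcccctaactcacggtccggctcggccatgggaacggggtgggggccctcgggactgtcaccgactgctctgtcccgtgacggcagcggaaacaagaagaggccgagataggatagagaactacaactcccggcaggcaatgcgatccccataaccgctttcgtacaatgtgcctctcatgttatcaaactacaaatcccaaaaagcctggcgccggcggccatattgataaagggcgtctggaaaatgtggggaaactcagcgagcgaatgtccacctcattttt
A match lay in a promoter of 4 of these 5 genes, against 5.14% of the 27025 genes of the table and 4.51% of its 32851 promoters, all of the same length. Nfkbia carried it 29 bases before the start site, Nfkbie 106 bases before, and Bcl3 from base 3 after it. The second start site of Nfkbid had a pair of matches, 226 and 181 bases before, and its other start sites had none. The Nfkbib window held none, which says only that these letters are missing from those 300 bases.

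The targeted gene was checked in each library. Nfkbia (ENSMUSG00000021025, GRCm38 chr12:55489410-55492647, minus strand, protein-coding) gave 1478 UMIs in the WT library and 7 in the KO library, or 13.6 and 0.071 CPM. The KO UMIs lay in 6 cells with at most 2 each, whereas a WT cell held up to 10, and no such KO barcode was also a WT barcode. In stem cells 280 UMIs in WT (20.005 CPM, 17.7 to 22.5) stood against 0 in KO. With 0 set to a floor of 3 UMIs that is 60.4-fold lower, and the interval of the log2 ratio ends at -5.61. Lymphoid, megakaryocyte, macrophage, endothelial and hepatocyte cells of the KO also held 0 UMIs, neutrophils 2 and erythroid cells 3. The genotype labels thus matched the counts in every cell type.

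In WT, Nfkbia was unevenly spread over the cell types. Endothelial cells (52.1 CPM, 36.5 to 72.1) and macrophages (45.8 CPM, 35.4 to 58.3) carried the most, with intervals that overlap each other. Neutrophils followed at 28.1 CPM (24.0 to 32.6), an interval that overlaps those of megakaryocyte cells (13.5 to 26.9) and hepatocytes (9.15 to 27.0). Stem (20.005), megakaryocyte (19.4), lymphoid (17.0) and hepatocyte (16.3 CPM) cells could not be ordered, since neighbouring intervals overlap. Erythroid cells were lowest at 7.13 CPM (6.45 to 7.85), clear of the rest.

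None of the other 5 members differed between KO and WT beyond counting error when all cells were pooled. Nfkbib had 4233 UMIs in WT and 4005 in KO, Nfkbie 298 and 258, Nfkbiz 266 and 246, Nfkbid 310 and 251, and Bcl3 196 and 189. In the Xist-positive cells that lacked Y-linked UMIs, the log2 KO/WT ratios of CPM ran from -0.065 (Nfkbid) to 0.16 (Bcl3). In all cells they ran from -0.18 (Nfkbid) to 0.08 (Bcl3), and the interval left out 0 for 0 of 5, whereas it did so for 31.8% of the 15085 genes with at least 20 UMIs. In stem cells it left out 0 for 0 of 5 as well, against 13.2% of 11849 genes. An interval that holds 0 does not show that a gene is unchanged. The shares of all genes pool every depth, and an interval leaves out 0 more readily where a gene has more UMIs. For genes of like depth to Nfkbib the share was 37.7% in all cells and 10.6% in stem cells. No such share was formed for the rarer members. Over the 8 types, 31 of the 40 pairs of member and type had at least 20 UMIs, of which 16 ratios were above 0 and 15 below. The interval left out 0 in 2 of the 31, namely Nfkbib in megakaryocyte cells, where it did so for 13.6% of all genes, and Bcl3 in lymphoid cells, where it did so for 9.81%. In the other types the share of all genes ran from 7.39% (endothelial) over 8.24% (hepatocyte), 13.5% (neutrophil) and 19.7% (macrophage) to 23.5% (erythroid).

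**Figure D1:**
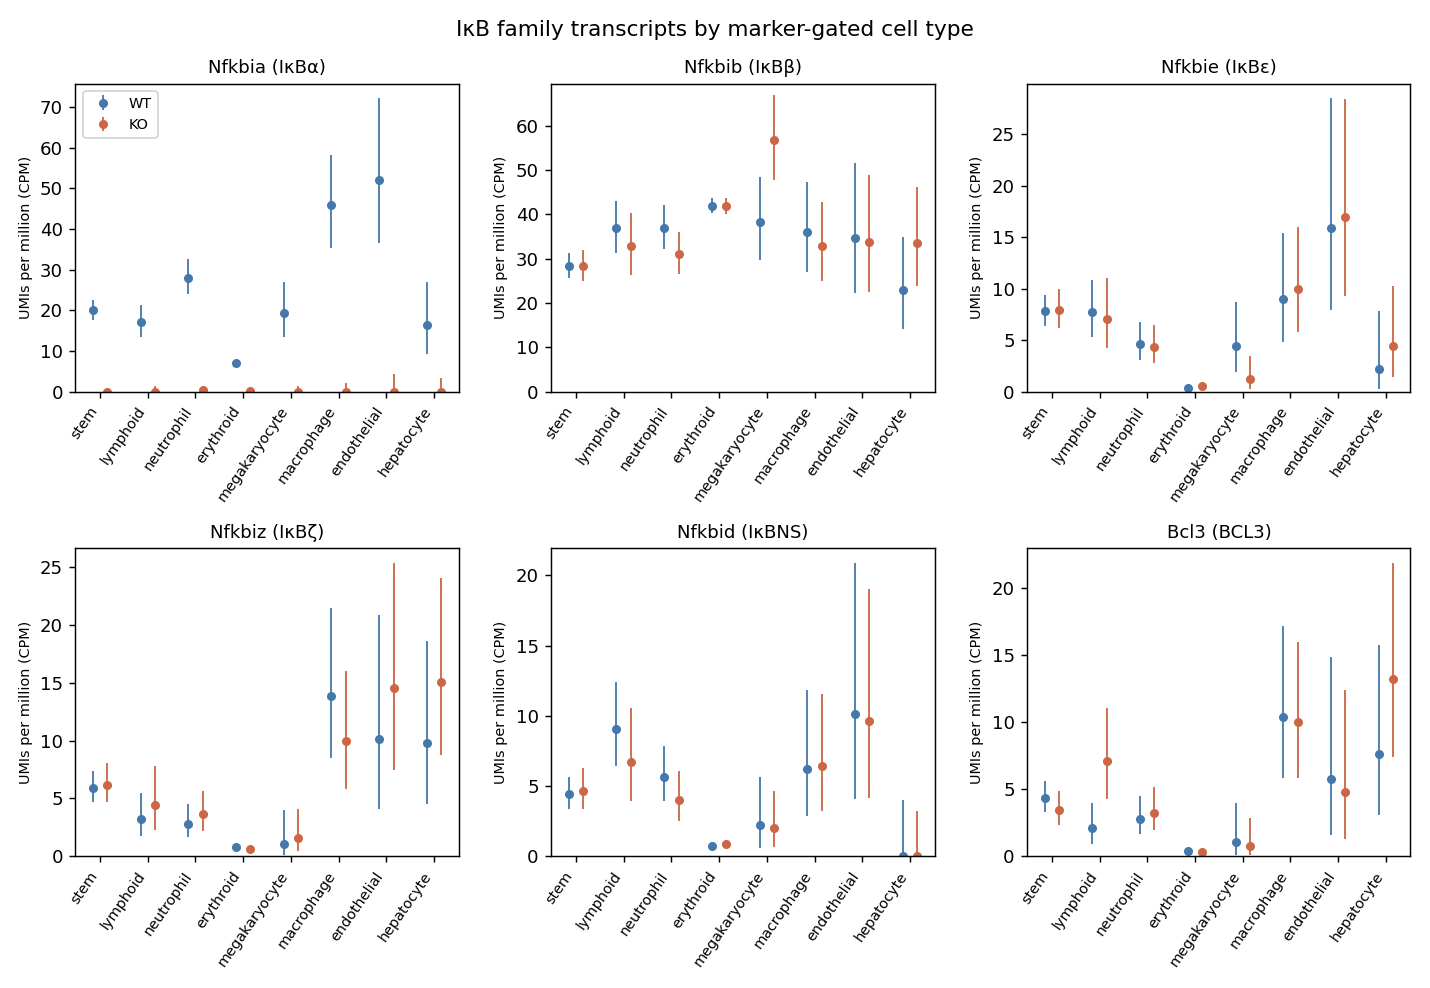
CPM of the 6 IκB genes (y axis, linear) in 8 marker-gated cell types (x axis) of the WT (blue) and KO (orange) library, with 1 point per library and bars for exact 95% Poisson intervals. Nfkbia is at or near 0 in every KO type, while the WT and KO intervals of the other genes overlap in every type except for Bcl3 in lymphoid cells (2.10 and 7.07 CPM).

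Nfkbib encodes IκBβ, a cytoplasmic inhibitor that is degraded more slowly than IκBα and holds dimers of RelA and c-Rel (ENSMUSG00000030595, chr7:28758251-28767512, minus strand). Over all cells it was the most abundant member, at 39.1 CPM in WT and 40.4 in KO, and between cell types the mean of the libraries ran only from 28.2 to 47.4 CPM. In stem cells it stood at 28.3 CPM in WT (396 UMIs in 275 of 711 cells) and 28.2 CPM in KO (256 UMIs in 192 of 657 cells). The ratio was 0.998-fold with an interval from 0.850 to 1.17, the tightest of the 5 members in this type. In erythroid cells it was 41.9 CPM in both libraries, from 2406 and 2332 UMIs, with a log2 ratio between -0.09 and 0.08. Neutrophils had 36.9 CPM in WT and 31.1 in KO (log2 -0.25, -0.54 to 0.05), lymphoid cells 36.8 and 32.8, macrophages 36.1 and 32.9, and endothelial cells 34.7 and 33.8. Hepatocytes had 22.9 CPM in WT and 33.6 in KO, from 21 and 38 UMIs (log2 0.55, -0.25 to 1.40). By the mean of the libraries megakaryocyte and erythroid cells ranked highest and stem cells and hepatocytes lowest, but each rank overlaps the next when each type is given the range spanned by its WT and KO intervals, a reading also used for the orders of the members that follow. The gene overlaps Ccer2 and Sirt2 on the opposite strand, where Cell Ranger, which was run with its default settings, counts only reads in the sense of a gene.

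Megakaryocyte cells were where Nfkbib differed. The WT cells held 69 UMIs in 29 of 47 cells (38.2 CPM, 29.7 to 48.3) and the KO cells 142 UMIs in 57 of 77 cells (56.7 CPM, 47.8 to 66.8). The log2 ratio was 0.57 (0.15 to 1.01), a range entered above 0 by 7.36% of the 8773 genes in this type. Thinned to 8000 UMIs per cell, 7 of 47 WT cells (14.9%) and 25 of 73 KO cells (34.2%) had a UMI, and the intervals of these shares overlap. The result depended on how the cells were picked. With the stricter gate the log2 ratio was 0.34 (-0.18 to 0.87), and in the megakaryocyte clusters of an unsupervised clustering it was -0.067 (-0.45 to 0.32), or 0.13 (-0.26 to 0.53) without the cluster of 3 WT and 102 KO cells. Other measures moved with it. The 8 megakaryocyte markers, which chose the cells, summed to 5575 CPM in WT and 11243 in KO with 0 markers at zero in either, and the 8 lymphoid markers to 71.4 and 5.59 CPM, with 1 and 4 at zero. Immediate early genes, which respond to cell handling, had their interval above 0 in 5 of 9 genes and summed to 369 CPM in WT and 631 in KO. Their part in the difference was not tested.

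Nfkbie encodes IκBε, the cytoplasmic inhibitor that is resynthesised late after NF-κB activation (ENSMUSG00000023947, chr17:45555703-45563169, plus strand). Stem cells held 109 UMIs in WT and 72 in KO, or 7.79 and 7.94 CPM, a ratio of 1.02-fold (0.747 to 1.39). Endothelial cells had the highest level, 15.9 CPM in WT and 16.9 in KO, followed by macrophages at 9.02 and 9.99 CPM. Lymphoid cells had 7.69 and 7.07 CPM and neutrophils 4.65 and 4.36. Erythroid cells were lowest at 0.401 and 0.539 CPM, from 23 and 30 UMIs. Neighbouring types overlap throughout this order, although erythroid cells were clear of stem, lymphoid, neutrophil, macrophage and endothelial cells. Megakaryocyte cells held 8 UMIs in WT and 3 in KO, a log2 ratio of -1.89 with an interval from -4.43 to 0.17.

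The 3 cytoplasmic inhibitors among the 6 members were then summed, since each can hold NF-κB in the cytoplasm. In WT, Nfkbia supplied 14.4% (13.1 to 15.8) of their UMIs in erythroid cells, 27.7% in lymphoid, 31.2% in megakaryocyte, 35.7% (32.3 to 39.1) in stem, 39.5% in hepatocyte and 40.3% in neutrophil cells. In macrophages it made up 50.4% (41.5 to 59.2) and in endothelial cells 50.7% (38.6 to 62.8). The sum in stem cells was 56.1 CPM in WT and 36.2 CPM in KO (log2 -0.63, -0.82 to -0.44). The sum of Nfkbib and Nfkbie there differed by 0.108 CPM between KO and WT (-4.93 to 5.26), set beside the 20.005 CPM of Nfkbia that had been in WT. The 3-gene sum went from 90.9 to 42.9 CPM in macrophages, from 102.8 to 50.7 in endothelial cells, from 69.6 to 35.8 in neutrophils, from 61.6 to 39.8 in lymphoid cells and from 49.5 to 42.5 in erythroid cells, and each of these intervals left out 0. The sum contains Nfkbia, so these drops include the deletion. For Nfkbib and Nfkbie alone, KO minus WT was -2.22 CPM in macrophages, -6.08 in neutrophils and -4.70 in lymphoid cells. It was 0.091 CPM in endothelial and 0.071 in erythroid cells, and the interval held 0 in each of these types. In megakaryocyte cells the sum was 62.0 CPM in WT and 57.9 in KO (log2 -0.10, -0.46 to 0.27), with Nfkbib and Nfkbie together 15.3 CPM higher (1.33 to 28.9). In hepatocytes it was 41.4 and 38.0 CPM (log2 -0.12, -0.79 to 0.54).

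**Figure D2:**
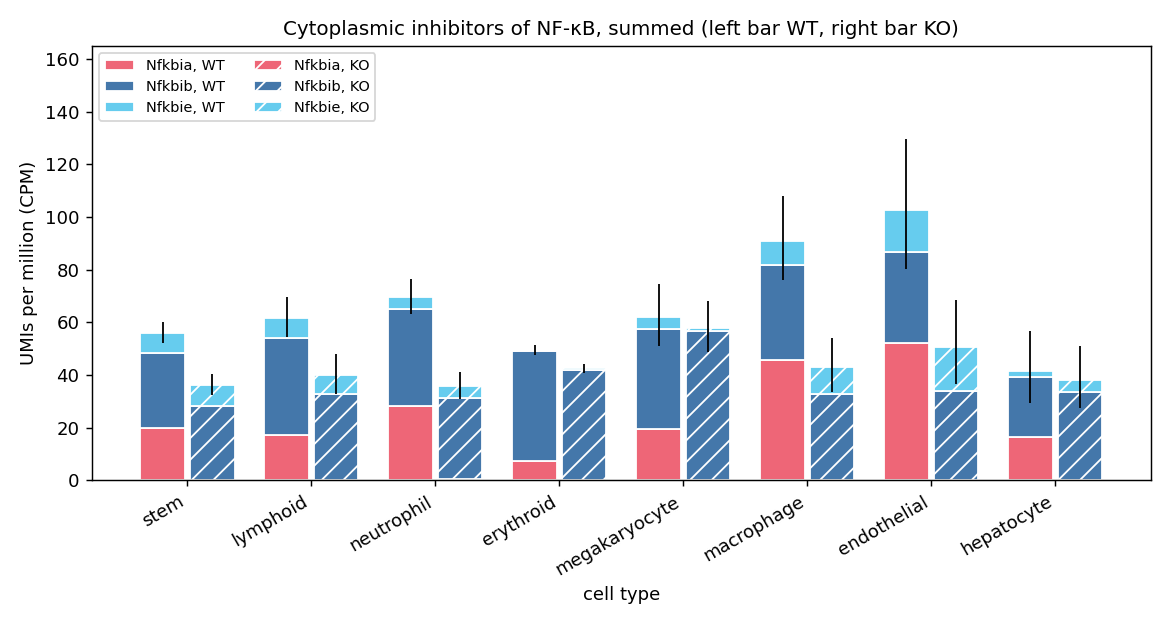
Summed CPM (y axis) of Nfkbia (red), Nfkbib (dark blue) and Nfkbie (light blue) in each cell type (x axis), WT in the plain left bars and KO in the hatched right bars, with exact 95% Poisson intervals of the sums as black lines. The red part is gone in KO, and the sums are 56.1 and 36.2 CPM in stem cells, and 62.0 and 57.9 CPM with overlapping intervals in megakaryocyte cells.

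Over all cells the nuclear members were, like Nfkbie, rarer than Nfkbib. Nfkbiz encodes IκBζ, an inducible cofactor for a subset of NF-κB targets in macrophages and epithelia (ENSMUSG00000035356, chr16:55811375-55838899, minus strand). Stem cells held 83 UMIs in WT and 56 in KO, or 5.93 and 6.18 CPM, a ratio of 1.04-fold (0.729 to 1.48). Macrophages had 13.9 CPM in WT and 9.99 in KO, endothelial cells 10.1 and 14.499, and hepatocytes 9.81 and 15.01. These 3 types ranked above stem cells by the mean of the libraries. Within a library the intervals lay apart for macrophages in WT (8.48 to 21.4, against 4.72 to 7.35 in stem cells) and for hepatocytes in KO (8.75 to 24.04, against 4.67 to 8.02). Erythroid cells came last at 0.802 and 0.628 CPM.

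Nfkbid encodes IκBNS, a nuclear IκB with roles in lymphocyte development (ENSMUSG00000036931, chr7:30421732-30428746, plus strand). It had 62 UMIs in WT and 42 in KO stem cells, or 4.43 and 4.63 CPM, a ratio of 1.05-fold (0.690 to 1.57). Lymphoid cells had 39 UMIs in WT and 18 in KO, or 9.09 and 6.70 CPM (log2 -0.44, -1.33 to 0.40). Neutrophils had 5.64 and 3.997 CPM (log2 -0.50, -1.34 to 0.32). Endothelial cells had 10.1 and 9.67 CPM from 7 and 8 UMIs, and hepatocytes held 0 UMIs in both libraries, where 3 UMIs would be 3.27 CPM in WT and 2.65 in KO.

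Bcl3 encodes BCL3, a partner of p50 and p52 homodimers that can turn them from repressors into activators (ENSMUSG00000053175, chr7:19808462-19822770, minus strand). Stem cells held 61 UMIs in WT and 31 in KO, or 4.36 and 3.42 CPM, a ratio of 0.785-fold (0.492 to 1.23). Macrophages had 10.4 and 9.99 CPM and hepatocytes 7.63 and 13.2, while erythroid cells had 0.418 and 0.359. The gene overlaps Gm16174 and Gm16175 on the opposite strand. In lymphoid cells Bcl3 had 9 UMIs in 8 of 141 WT cells (2.10 CPM, 0.960 to 3.98) and 19 UMIs in 15 of 133 KO cells (7.07 CPM, 4.26 to 11.05). The log2 ratio was 1.75 (0.54 to 3.08), in a type where 6.16% of 9649 genes had their interval above 0. Thinned to 8000 UMIs per cell, 1 of 141 WT cells (0.709%, 0.018 to 3.89) and 8 of 133 KO cells (6.02%, 2.63 to 11.5) had a UMI, with overlapping intervals. Thinned to 4000 UMIs, 0 of 141 WT and 1 of 133 KO cells did. Without thinning the shares were 5.67% (2.48 to 10.9) in WT and 11.3% (6.45 to 17.9) in KO, and these intervals overlap as well. With the stricter gate, which kept 53 WT and 55 KO lymphoid cells, only 2 and 1 UMIs were left and no ratio was formed. Beside this, the lymphoid markers that chose the cells summed to 266 CPM in WT and 374 in KO, with 1 and 0 of 8 at zero, and the 11 neutrophil markers to 899 and 617 CPM, with 3 and 5 at zero. The 6 monocyte or dendritic markers summed to 147 CPM in WT and 138 in KO. Among them Cd74 (1.87 CPM in WT, 24.9 in KO), H2-Aa and Ly86 were higher in KO, and Irf8, Siglech and Ccr2 were lower. Their part was not tested.

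**Figure D3:**
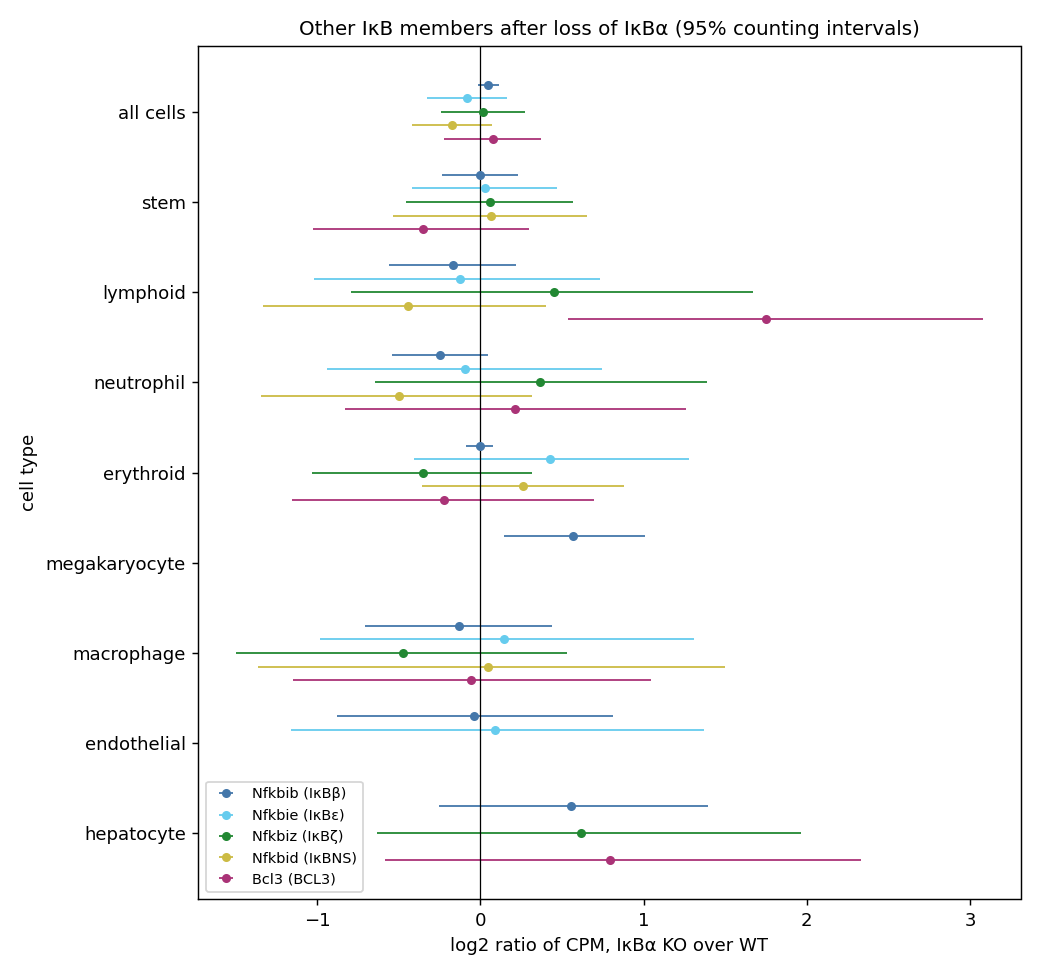
Log2 ratio of CPM in KO over WT (x axis) of the 5 members other than Nfkbia, by cell type (y axis), with exact conditional 95% intervals, shown where a member had at least 20 UMIs over both libraries. The intervals leave out 0 for Nfkbib in megakaryocyte cells (0.57) and Bcl3 in lymphoid cells (1.75), and hold it in the other pairs shown.

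The 3 nuclear members summed to 14.7 CPM in WT and 14.2 in KO stem cells (log2 -0.05, -0.38 to 0.28). All 5 members other than Nfkbia summed to 50.8 and 50.4 CPM there (log2 -0.01, -0.18 to 0.16), and to 48.95 and 49.95 CPM in all cells. Under other processing settings the stem log2 ratio of the 5 ran from -0.22, outside the interval above, to 0.007. For the 3 nuclear members it ran from -0.24 to 0.008. In lymphoid cells the log2 ratio of the 5 was -0.02 (-0.32 to 0.27) and reached -0.56 under another setting. The sum of the 5 was higher in KO, with an interval that left out 0, in megakaryocyte cells (47.0 and 62.3 CPM, log2 0.41, 0.02 to 0.80) and in hepatocytes (42.5 and 66.2 CPM, log2 0.64, 0.06 to 1.24). The megakaryocyte value rests on Nfkbib, with 142 of the 156 KO UMIs, and was -0.0037 in the megakaryocyte clusters. The hepatocyte value rests on 39 UMIs in 22 cells and 75 UMIs in 44 cells, and when only Xist-positive cells free of Y-linked UMIs were used it was 0.33 (-0.40 to 1.05). Immediate early genes in hepatocytes had their interval above 0 in 6 of 9 genes, where 4.44% of all genes did, and summed to 673 CPM in WT and 835 in KO, and their part was not tested. The median log2 ratio over all genes lay between -0.004 and 0.030 in 7 types and in all cells, and at 0.10 in macrophages.

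Shares of cells with a UMI were compared after thinning each cell to 8000 UMIs, because WT cells were deeper. Shallower cells were left out, 115 of WT and 326 of KO. An Nfkbia UMI was seen in 10.3% of WT cells and 0.049% of KO cells, a share that serves as the level left where the gene is deleted. The share with Nfkbib was 23.7% (22.3 to 25.2) in WT and 25.3% (23.9 to 26.6) in KO, and in stem cells 17.6% (14.9 to 20.7) and 21.1% (17.8 to 24.8), with 25 of 711 WT and 112 of 657 KO stem cells left out. Thinned to 4000 UMIs the stem cell shares stood the other way, at 9.90% in WT and 8.92% in KO, with overlapping intervals. For Nfkbie the shares were 2.90% and 2.64%, for Nfkbiz 2.06% and 1.88%, for Nfkbid 2.84% and 1.98%, and for Bcl3 1.71% and 1.69%. The WT and KO intervals of each member overlapped. Without thinning, over all cells, every member was seen in a smaller share of KO than of WT cells. In stem cells the share with Nfkbib was lower in KO by 9.45 percentage points.

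The rest of the pathway was read from lists of known members. The lists were chosen with earlier results of these data known, so their counts of genes with an interval above or below 0 are a description only. Among the 5 Rel subunits, Relb, which encodes the partner of p52 in the non-canonical arm, had its interval above 0 in stem cells. It was read 56 times in WT, from 52 cells, and 81 times in KO, from 71 cells, or 4.001 and 8.94 CPM (log2 1.16, 0.65 to 1.68), where 7.80% of all genes had their interval above 0. In all cells Relb went from 1.95 to 3.34 CPM (log2 0.78, 0.53 to 1.03) and Nfkb2, which encodes the precursor of p52, from 4.67 to 5.99 (log2 0.36, 0.18 to 0.53). Nfkb1, the gene of p105 and p50, went from 30.8 to 28.1 CPM (log2 -0.14, -0.21 to -0.06). In the stem cluster of the unsupervised clustering, with 24 and 23 UMIs, Relb had a log2 ratio of 0.56 (-0.34 to 1.44). Of 23 listed NF-κB targets, 17 had enough UMIs in stem cells, 5 had their interval above 0 and 0 below, where 7.80% and 5.42% of all genes did, with a median log2 of 0.17 against 0.01 over all genes. Ltb, which encodes lymphotoxin β, went from 135 to 251 CPM (1891 and 2278 UMIs, log2 0.90, 0.81 to 0.98), and the transcription factor gene Irf1 from 14.9 to 21.0 CPM (log2 0.50, 0.20 to 0.79; 0.32, -0.06 to 0.70, with the stricter gate). Sod2, mitochondrial superoxide dismutase, had 107 and 121 CPM (log2 0.18, 0.06 to 0.29), and its interval held 0 with the stricter gate and in the stem cluster. The chemokine genes Ccl5 and Cxcl10 were carried by a handful of cells, with 78 Ccl5 UMIs in 6 KO cells, 46 of them in 1 cell, against 1 UMI in WT, and 18 Cxcl10 UMIs in 3 KO cells against 3 UMIs in 3 WT cells. Their counting intervals, which assume independent molecules, are therefore too narrow.

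**Figure D4:**
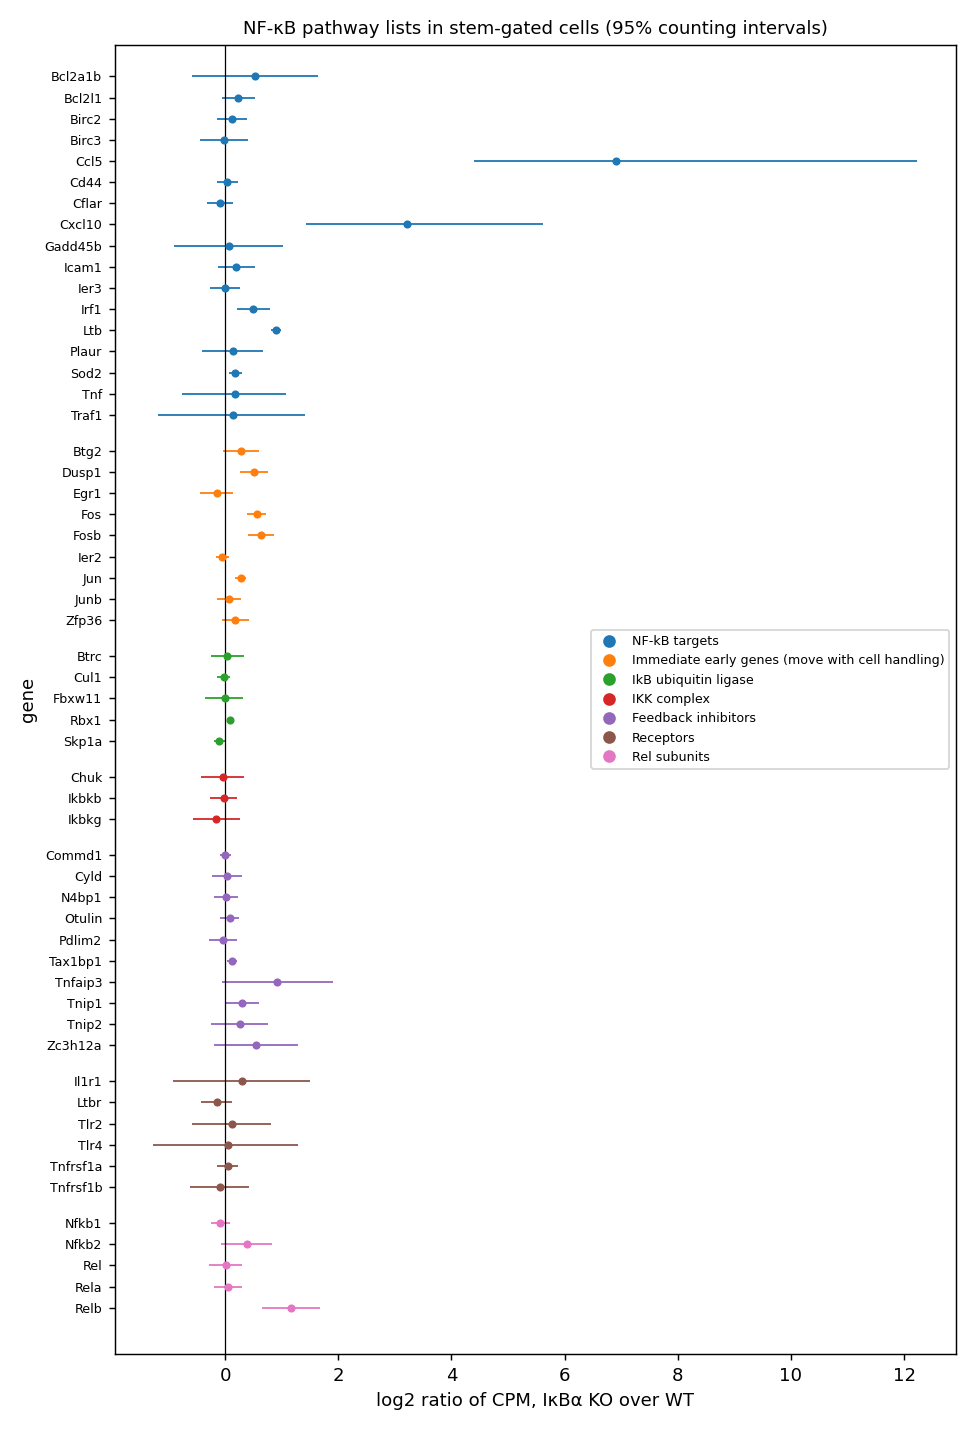
Log2 ratio of CPM in KO over WT (x axis) in stem cells for the genes of 7 pathway lists (y axis, coloured by list) with at least 20 UMIs, with exact conditional 95% intervals. Relb at 1.16 is the only Rel subunit whose interval leaves out 0, and Ccl5 and Cxcl10 lie far right on the UMIs of few cells.

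The machinery that acts on IκB proteins was read in stem cells, where 13.2% of all genes had an interval that left out 0. Of the 3 genes of the IKK complex, which phosphorylates IκBs, 0 had an interval that left out 0, with 47.0 CPM summed in WT and 45.2 in KO. Of the 5 genes measured for the ligase that ubiquitinates them, Rbx1 was above 0 (log2 0.09) and Skp1a below (log2 -0.10). Of the 10 other feedback inhibitors, 2 were above 0 and 0 below, with a median log2 of 0.10, and of 6 receptors with enough UMIs 0 left out 0. Immediate early genes were above 0 in 4 of 9, with summed CPM of 428 in WT and 501 in KO, and their part in the values of the target list was not tested. In macrophages 2 of 16 targets had their interval above 0 and 1 below, next to 13.2% and 6.55% of all genes, with a median log2 of 0.18. The lower one was Cxcl2, a neutrophil chemokine, with 43 UMIs in WT and 5 in KO (29.8 and 2.94 CPM, log2 -3.34, -5.04 to -2.01). How these UMIs were spread over the macrophages was not counted, so the interval may be too narrow. Genes within 500 kb of Nfkbia numbered 14, of which 10 had enough UMIs in all cells, 1 with its interval above 0 and 4 below, next to 17.3% and 14.4% of all genes.

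The genes whose WT and KO levels over the 8 cell types were most like each member were found by Pearson's r of log2(CPM + 1), averaged over the libraries. The 8 points share their library and sum the cells of unequal types, so r is a description. Each match is also the highest of all genes searched over only 8 points, so the search itself picks high values of r. Icam1, an NF-κB-inducible adhesion molecule, was the closest to Nfkbiz among 10229 genes (r = 0.943 in WT and 0.984 in KO), and Nfkbiz itself was among the closest to Bcl3 (0.982 and 0.882). Nfkbid was nearest to Abi3, a regulator of actin (0.972 and 0.981), and Nfkbie to Pxn, which encodes the focal adhesion protein paxillin (0.953 and 0.976). Nfkbib, whose level varies little, had its best match in Mtfr1l at 0.852 and 0.907. Nfkbia, read in WT alone, was nearest to Camk1 (0.981).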

How the data were processed

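The authors aligned the reads to mm10 (GRCm38) with Cell Ranger 6.0.0 at default settings, per the submitters' processing notes and the study's methods, and deposited for each library a table of UMI counts that are whole numbers without normalisation. Gene positions came from GENCODE vM21 of the same build, which held 32158 of 32285 gene IDs. The 6 genes, the pathway lists and the markers were chosen with earlier results of these data known.

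Barcodes with fewer than 1000 genes seen or more than 20% mitochondrial UMIs were dropped, which removed 382 of 3840 WT and 511 of 4928 KO barcodes. Scrublet calls (scanpy 1.11.5, expected rate 5%), 3.90% in WT and 5.80% in KO, were kept in the main setting. A cell entered a type when it showed at least 1 UMI of 2 of 8 stem or lymphoid, 4 of 11 neutrophil, 5 of 8 erythroid, 4 of 8 megakaryocyte, 5 of 10 macrophage, 5 of 8 endothelial or 6 of 8 hepatocyte markers, where the mature types took precedence. Cells with more than 1 mature type (126 WT, 194 KO) or without a type (582 WT, 733 KO) were not in the types. These minimums were set after the data had been seen, and 470 WT and 534 KO cells lay at theirs. The libraries shared 6 barcodes among kept cells. Named genes were the members, the genes of the lists, and per member the 3 most alike genes, of which the first is given.

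Counts were summed by library and type. CPM carry exact Poisson intervals, log2 KO/WT ratios exact conditional (Clopper-Pearson) intervals, and shares exact Clopper-Pearson intervals. PCR duplicates are removed by UMIs, and the intervals cover counting error only. Ratios needed at least 20 UMIs over both libraries unless given with their counts, and a count of 0 was set to 3 UMIs. No p-value was computed. The intervals were tried only on counts simulated from the Poisson model that they assume. Such counts cannot show how the intervals behave with UMIs clumped in few cells or with variation between embryos. Clusters came from Seurat 5.3.0 in R 4.3.3.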

Additional observations from a re-analysis of the deposited data

How the results depend on the processing

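The ratios of the members, of their sums, of Relb, Ltb, Nfkb1 and Nfkb2, and of the other named genes in stem cells and macrophages were recomputed, except for Rbx1, Skp1a, Ccl5 and Cxcl10, under changed cell filters, doublet removal, scaling, averaging, sex of the cells, gate, clustering and depth. No paired analysis was possible because there was only 1 WT and 1 KO library. Of the results on the 6 members, 376 values under other settings stayed inside the interval of the reported value or, for Nfkbia where the KO held 0 UMIs, kept their direction, 18 moved out of it and 1, whose interval had left out 0, turned its sign. Among the 305 values whose reported interval held 0, 39 had the opposite sign. The neighbours of Nfkbia, the likeness of genes and the split by sex in KO were not recomputed. The log2 ratio of Nfkbib in megakaryocyte cells ran from 0.51 to 0.73 under the other choices that kept the gate, was 0.34 with the stricter gate and turned to -0.067 in the named clusters, as did the sum of the 5 members there (-0.0037). Leaving out the cluster of 3 WT and 102 KO cells, an alternative chosen after seeing the data, gave 0.58 with the gate and 0.13 with the clusters. Bcl3 in lymphoid cells ran from 1.71 to 1.89, but the stricter gate left too few UMIs for a ratio. No cluster had enough of the listed markers among its leading genes to be named lymphoid or erythroid. A cluster of 274 WT and 287 KO cells led by Ebf1, Ccr2 and Il7r stayed unnamed, and Bcl3 was not read in it. The cluster led by the globin genes Hbb-bh1 and Hba-a2 stayed unnamed as well. The stem cluster gave -0.28 for Nfkbib and -0.63 for Nfkbid. The stricter gate in lymphoid cells gave -1.09 for Nfkbie and -1.97 (-4.38 to -0.20) for Nfkbid, from 18 and 3 UMIs. Removing doublet calls gave 1.46 for Nfkbie in erythroid cells, from 5 and 13 UMIs. Intervals that held 0 in the main setting left it out for Nfkbib in all cells with at least 2000 detected genes (0.07), Nfkbid in neutrophils with the stricter gate (-1.17) and Nfkbib in the hepatocyte cluster (0.47). The causes were not tested.

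Shares of cells with a UMI depend on depth by construction. For Nfkbia the KO minus WT difference in percentage points was -5.48 in all cells and -7.78 in stem cells at 4000 UMIs, and -28.0 and -29.5 without thinning. Without thinning the differences in all cells were -9.25 for Nfkbib, -2.42 for Nfkbie, -1.49 for Nfkbiz, -2.62 for Nfkbid and -1.23 for Bcl3. In stem cells they were -9.45 for Nfkbib, -3.74 for Nfkbie, -2.38 for Nfkbiz and -3.46 for Bcl3, where WT cells had a median of 17885 UMIs and KO cells 12710. Depth limits the rarer members, since in stem cells the interval of Bcl3 spans 0.492-fold to 1.23-fold.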

Other observations

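Within the KO library, cells that held Y-linked UMIs but no Xist (male) were set beside cells that held Xist but no Y-linked UMI (female). The interval of the male over female ratio left out 0 for 2 of the 5 members, both lower in male cells, next to 27.3% of 13709 genes in either direction and 12.3% lower in male cells. Nfkbie had 196 UMIs in female cells (2.92 CPM) and 23 in male cells (1.33 CPM), a log2 ratio of male over female of -1.14 (-1.83 to -0.51). In stem cells the counts were 57 and 6 (log2 -0.71, -2.21 to 0.50), and in erythroid cells 22 and 0. With 0 set to the floor of 3 UMIs the erythroid value is 2.12-fold lower in male cells, and the interval of its log2 ratio ends at -0.66. Bcl3 had 132 and 21 UMIs, or 1.97 and 1.21 CPM (log2 -0.70, -1.44 to -0.03). Nfkbib showed 39.5 CPM in female and 41.6 in male cells (log2 0.07, -0.05 to 0.19), Nfkbiz 2.49 and 1.79, and Nfkbid 2.64 and 2.14. Male cells made up 12.6% of stem, 19.7% of erythroid and 24.7% of neutrophil cells of the KO, so the sexes differ in their mix of types, whose part in the values over all cells was not tested. Sex and embryo cannot be told apart.

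In macrophages 8 of the 43 genes of the pathway lists with enough UMIs had their interval above 0 and 1 below, next to 13.2% and 6.55% of all genes. They were 1 of 5 Rel subunits, 0 of 3 IKK genes, 0 of 5 ligase genes, 3 of 8 feedback inhibitors, 2 of 6 receptors and 2 of 16 targets. Tnip1, a partner of the feedback inhibitor A20, had 15 UMIs in WT and 45 in KO (10.4 and 26.4 CPM, log2 1.34, 0.47 to 2.29), and N4bp1 had 26.4 and 45.8 CPM (log2 0.80, 0.22 to 1.40). The receptor genes Tlr2 (39.6 and 69.3 CPM) and Tnfrsf1b (17.3 and 32.9 CPM) and the Rel subunit gene Rel (22.9 and 38.2 CPM) also had their interval above 0. The 47 WT macrophages had a median depth of 30899 UMIs, and the 88 KO macrophages one of 16579. The 10 macrophage markers, which chose the cells, summed to 4195 CPM in WT and 6360 in KO, the 8 endothelial markers to 240.1 and 141 CPM, and the 8 lymphoid markers to 45.1 and 17.6 CPM. Their part was not tested. In the macrophage cluster N4bp1 had a log2 ratio of 0.44 (-0.05 to 0.92).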
